A study of Mus musculus with 12 samples.

Results

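Presomitic mesoderm is the unsegmented tissue beside the tail end of the embryonic axis, from which somites, the blocks that form vertebrae and skeletal muscle, are cut off in pairs. 9 genes of this tissue and of its segmentation clock were chosen by symbol (*Tbx6*, *Msgn1*, *Dll1*, *Dll3*, *Hes7*, *Lfng*, *Mesp2*, *Ripply2* and *Rspo3*) from the 55141 genes in the count table. All 9 symbols were found in the table of FPKM values (fragments per kilobase of transcript, scaled to the depth of the library) and their Ensembl identifiers led to the counts.

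The libraries came from gastruloids, which are aggregates of mouse embryonic stem cells that lengthen and pattern an axis in culture. 300 cells of a 129/svev line were seeded per well and received 3 μM CHIR99021, a Wnt agonist, for 24 h from 48 h onwards. They were embedded at 72 h or at 96 h after seeding in a dextran hydrogel whose concentration was either 1.0 mM or, for the stiffer gel, 1.5 mM, and all were collected at 120 h. Each of the 4 groups held 3 libraries, each from a pool of about 30 gastruloids that were freed from the gel with dextranase, so that all 12 libraries shared the embedding, the agonist and the enzyme. Gastruloids grown without a gel were not analysed here.

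In the tail of the embryo, Wnt and FGF signals keep presomitic cells immature, while a clock made of Notch, Wnt and FGF target genes switches on and off in waves that sweep forwards through the tissue. Tbx6 and Msgn1 set the presomitic identity, Dll1 activates Notch receptors, and Hes7 and Lfng close negative feedback loops that drive the oscillation. Where the wave stops, Mesp2 and Ripply2 mark the border of the next segment. A library made from whole gastruloids averages over cells in every phase of the clock, and fewer cells of a type and less RNA per cell cannot be told apart in it.

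Promoter sequences from RefSeq (GRCm38.p6) are shown for the clock gene *Lfng*, one of the genes that changed in a gel, and for *Msgn1* and *Ripply2*, whose transcripts were close to absent. Each run goes 5′ to 3′ on the strand of the gene, from 250 bases before the start to the first annotated exon base. They lie at chr5:140607091-140607319 (+), chr12:11208973-11209198 (-) and chr9:87015287-87015536 (+). Capitals mark, on either strand, the letters GTGTGA (T-box), TGGGAA (RBPJ, the DNA-binding partner of Notch), CTTTGNT (TCF/LEF, the Wnt effectors), CACGTG (E-box) and CACGCG (a site of Hes-type repressors).
Lfng: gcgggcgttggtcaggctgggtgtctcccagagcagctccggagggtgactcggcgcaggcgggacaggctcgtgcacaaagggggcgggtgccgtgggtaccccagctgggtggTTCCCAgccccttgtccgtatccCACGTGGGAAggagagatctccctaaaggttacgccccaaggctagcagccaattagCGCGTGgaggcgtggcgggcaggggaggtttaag
Msgn1: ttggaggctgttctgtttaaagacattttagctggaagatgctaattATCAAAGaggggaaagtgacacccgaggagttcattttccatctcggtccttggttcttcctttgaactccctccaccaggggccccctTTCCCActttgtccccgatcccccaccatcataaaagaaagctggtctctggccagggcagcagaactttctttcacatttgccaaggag
Ripply2: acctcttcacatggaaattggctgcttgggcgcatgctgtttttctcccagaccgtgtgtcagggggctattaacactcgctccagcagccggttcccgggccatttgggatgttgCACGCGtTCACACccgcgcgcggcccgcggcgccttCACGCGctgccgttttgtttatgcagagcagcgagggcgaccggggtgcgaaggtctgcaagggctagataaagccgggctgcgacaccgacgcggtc

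The *Lfng* stretch held the RBPJ letters at -135 and -108 from the start, and the second match overlapped an E-box at -112. A match to the Hes-type site stood at -55. The *Msgn1* stretch held 1 TCF/LEF match at -203 and 1 RBPJ match at -114, and the *Ripply2* stretch held 1 T-box match at -127 between Hes-type matches at -134 and -98. Entries were found for 8 of the 9 genes, and the windows of *Dll1*, *Dll3* and *Hes7* began within annotated exons and are not printed. Their 250 bases held a T-box match at -146 for *Dll3*, an RBPJ match at -180 and a Hes-type match at -14 for *Hes7*, and a Hes-type match at -68 before the second of the *Dll1* starts. None of the 5 patterns was found in the windows of *Tbx6* and *Mesp2*. Among 32851 promoter windows of the same length, 12.3% held the T-box letters, 21.6% RBPJ, 16.0% TCF/LEF, 6.02% the E-box and 7.62% the Hes-type site. These are matches of letters only.

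Total counts per library ran from 23011791 to 27609422. A count of 3, the limit that an observed 0 allows, was worth 0.11 to 0.134 CPM (counts scaled to a common library total). The library 72 h, 1.5 mM replicate 1 stood apart from the others of its group, with a chi-square per degree of freedom of 46.1 and 76.9 over genes against 6.75 to 31.9 for the other 10 pairs of replicates. Results that rest on it are given with and without it.

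The 9 genes spanned the range from moderate expression to near absence. *Dll3*, a Notch ligand relative that blocks Notch signalling within the cell, was highest per length at 6.27 ± 2.35 FPKM (SD, n = 12). *Rspo3*, a secreted amplifier of Wnt signalling, followed at 4.59 ± 0.787 FPKM, then *Dll1* at 3.10 ± 0.803 FPKM and *Lfng*, an enzyme that adds sugars to Notch receptors, at 1.53 ± 0.381 FPKM. The presomitic transcription factor *Tbx6* reached 0.568 ± 0.181 FPKM and the clock repressor *Hes7* 0.493 ± 0.301 FPKM. *Mesp2* stood at 0.320 ± 0.123 FPKM, *Ripply2* at 0.174 ± 0.0973 FPKM and *Msgn1* at 0.0124 ± 0.0225 FPKM. Neighbours in this order were mostly well separated, as *Rspo3* exceeded *Dll1* and *Dll1* exceeded *Lfng* in 12 of 12 libraries. *Tbx6* exceeded *Hes7* in only 8 of 12, and their order differed between groups. The FPKM ratio of *Hes7* to *Tbx6* was 0.328 to 0.885 in the libraries embedded at 72 h. In those embedded at 96 h it was 0.599 to 1.55, with a median of 1.28. The 96 h libraries had 1.47, 1.47 and 1.55 in 1.0 mM gels but 0.929, 0.599 and 1.09 in 1.5 mM gels. *Dll3* lay above 72.5% of detected genes and *Msgn1* above 20.6%.

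**Figure D1:**
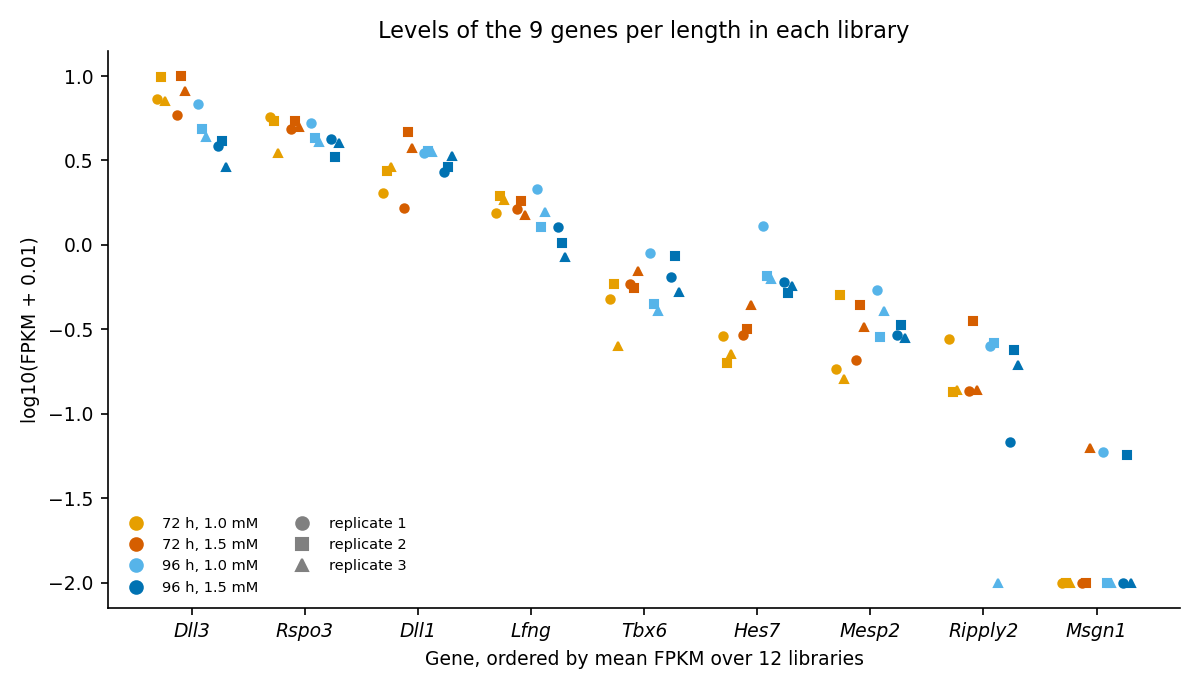
Level per length of each gene in each of the 12 libraries, as log10(FPKM + 0.01), with colours for the 4 groups and marker shapes for replicates. Within each of the 12 libraries *Dll3*, *Rspo3*, *Dll1* and *Lfng* exceed the other 5 genes, and *Msgn1* is listed at 0 FPKM in 9 libraries, drawn at -2.

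The presomitic transcription factors and the clock repressor *Hes7* were therefore weakly expressed in these libraries. *Msgn1*, a basic helix-loop-helix factor made almost only in presomitic cells, had 0 to 3 counts per library and 10 counts in all 12. *Tbx6* had 20 to 80 counts and *Hes7* 12 to 86. Tail bud genes were mixed. Of a list of 14, *Wnt3a* (0 to 9 counts) and *Cdx4* (0 to 4) stayed below 10 counts in all 12 libraries, whereas 6 had more than 100 counts in all 12, namely *T* (1725 to 7093), *Greb1* (2435 to 3402), *Cyp26a1* (447 to 949), *Fgf8* (432 to 676), *Sp8* (102 to 235) and *Wnt5b* (102 to 164), and these ranges were chosen for mention after the values were seen. Segment border and somite genes, a list of 17, were mixed as well. *Meox1* and *Tcf15*, both somite transcription factors, were abundant, with 1519 to 10940 and 555 to 3686 counts. *Pax1* had 27 to 276 counts and *Fgf18* 0 to 42, and these genes are examples from the list. *Dll1*, *Dll3*, *Lfng* and *Rspo3* are also used in neural and other tissues, so their levels do not by themselves mark presomitic cells.

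The first question was whether the time of embedding altered these genes, with libraries compared within each gel. Changes are log2 fold changes of 72 h over 96 h from edgeR's quasi-likelihood test, and a gene counted as changed below an adjusted p of 0.05 over all genes tested. 7 of the 9 genes passed the filter on low counts. *Msgn1* and *Ripply2* did not and were not tested. Whether the libraries of 2 groups overlapped is given as a description only. The share of all genes whose groups were apart was not counted. An unadjusted p below 0.05 in the edgeR test was reached by 3602 of 15763 genes in 1.0 mM gels and by 5510 of 15683 in 1.5 mM gels. In the fit over both gels 6970 of 16388 genes reached it.

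*Hes7*, the repressor at the core of the clock, was lower after the earlier embedding. In 1.0 mM gels it had 20, 13 and 12 counts in the libraries embedded at 72 h and 86, 39 and 45 counts in those embedded at 96 h. The groups did not overlap, and replicate 1 of the later embedding was far above the rest. *Hes7* fell by 1.78 on the log2 scale (SE 0.38, adjusted p = 0.0132), a 3.44-fold lower level. It was the only 1 of the 7 tested genes to change in this gel, where 3.27% of all genes tested fell and 5.97% rose. Without 96 h, 1.0 mM replicate 1 the difference was -1.36 with an adjusted p of 0.0523 by the edgeR quasi-likelihood test, so the call rested on that library.

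In 1.5 mM gels *Hes7* had 19, 23 and 26 counts after embedding at 72 h and 43, 34 and 48 counts after embedding at 96 h. The groups again did not overlap. The log2 difference was -0.73 (SE 0.26, edgeR adjusted p = 0.0726) and missed the threshold. Over both gels, in a fit of all 12 libraries with gel concentration as a term, *Hes7* fell by 1.24 (SE 0.26, edgeR adjusted p = 0.0026). In that fit 14.8% of all genes tested fell. The call of *Hes7* held in 16 of 16 alternatives, with adjusted p from 1.15e-06 to 0.00749. As a description, all 6 libraries embedded at 72 h, with at most 26 counts, lay below all 6 embedded at 96 h, with at least 34. How many other genes were separated in this way was not counted. A gene on the opposite strand, *9130213A22Rik*, overlaps 2186 bases of the *Hes7* locus (chr11:69120404-69124055, mm10, plus strand) and had 0 to 5 counts. The strand setting behind the counts is not given in the sources used here. In the FPKM values, made with a stranded setting, *Hes7* showed the same order, with 0.228 ± 0.0455 against 0.852 ± 0.383 FPKM in 1.0 mM gels and 0.339 ± 0.0783 against 0.555 ± 0.0419 FPKM in 1.5 mM gels (72 h against 96 h, SD, n = 3 each).

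*Dll3* (chr7:28293553-28302238, mm10, minus strand) moved the other way. In 1.5 mM gels it had 524, 820 and 700 counts after embedding at 72 h and 390, 428 and 272 counts after embedding at 96 h. The groups were apart, and *Dll3* rose 2.07-fold, a log2 difference of 1.05 (SE 0.20, edgeR adjusted p = 0.00815). Without 72 h, 1.5 mM replicate 1, the library that stood apart, the difference was 1.19 (edgeR adjusted p = 0.00132). *Dll3* was called in this gel under 11 of 11 alternatives.

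In 1.0 mM gels *Dll3* had 609, 890 and 612 counts after embedding at 72 h and 641, 431 and 426 counts after embedding at 96 h. Scaled to depth, 25.8, 36.4 and 25.5 CPM stood above 24.6, 17.3 and 15.7 CPM, so that the groups were apart by a narrow gap. The difference of 0.61 (SE 0.18, edgeR adjusted p = 0.0623) missed the threshold, and 5 of 11 alternatives took it past, with adjusted p from 4.88e-05 to 0.223 over the 11. Over both gels *Dll3* rose by 0.83 (SE 0.16, edgeR adjusted p = 0.00126), and this call held in 16 of 16 alternatives. *Dll3* and *Hes7* were the 2 of 7 tested genes that changed over both gels, 1 in each direction, where 16.2% of all genes tested rose and 14.8% fell.

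**Figure D2:**
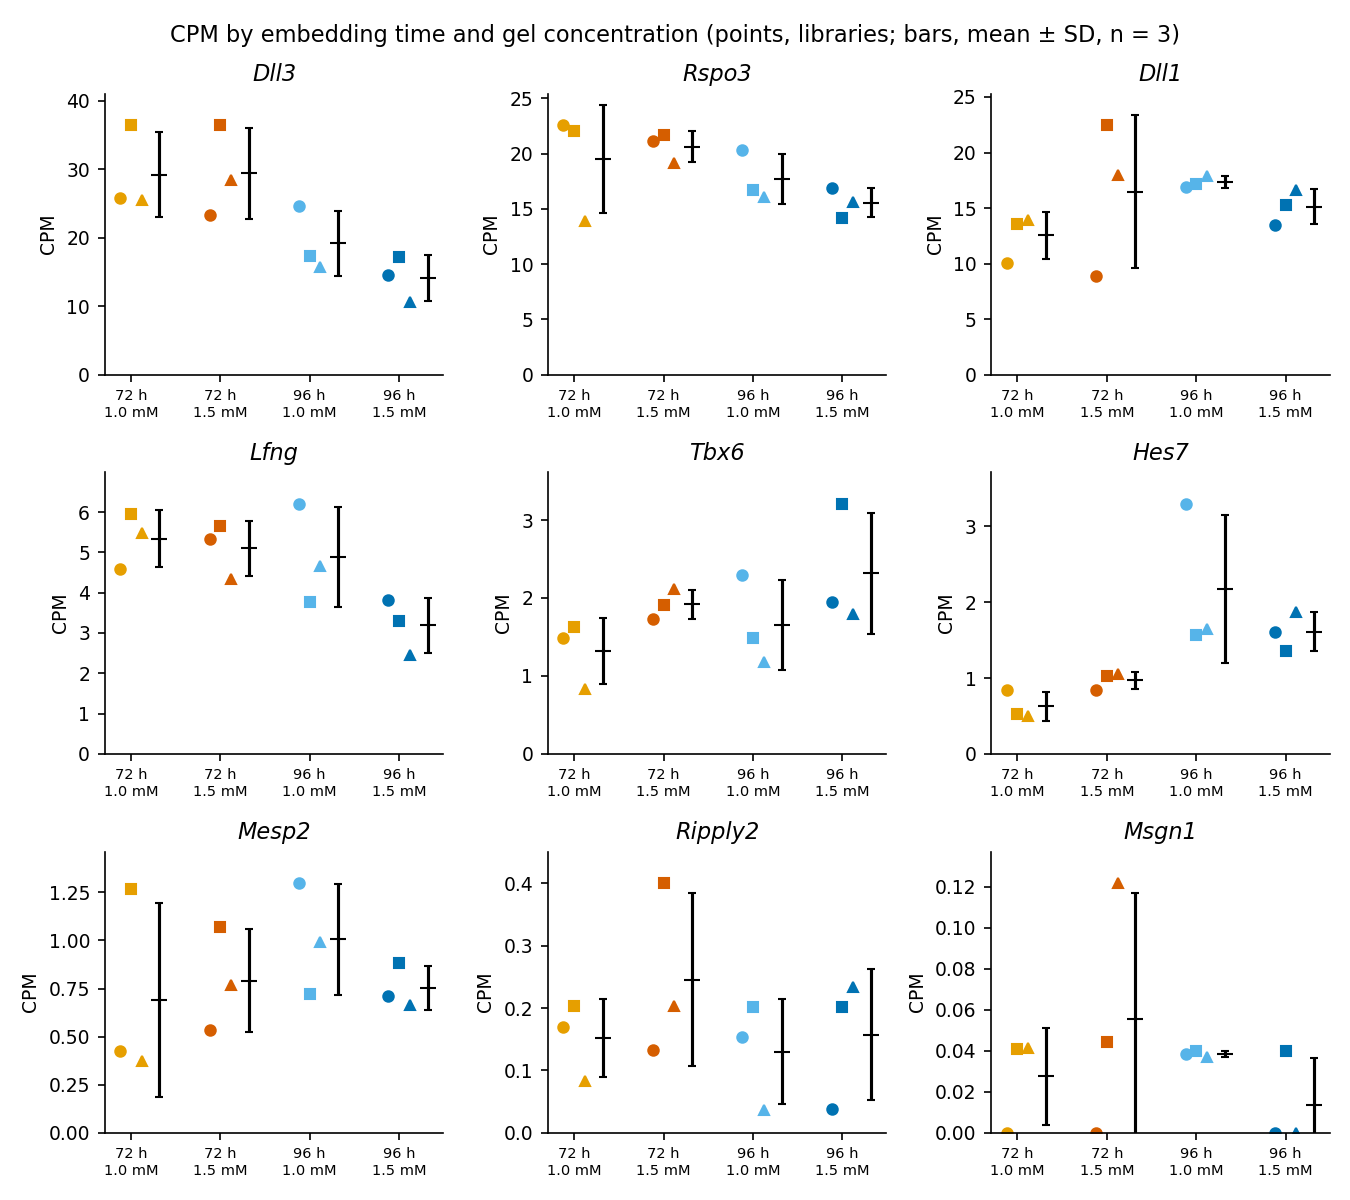
CPM of each of the 9 genes by group, with 1 point per library (circle, square and triangle for replicates 1, 2 and 3) and the mean ± SD of 3 libraries beside them, bars cut at 0. All 6 *Hes7* values after embedding at 72 h lie below all 6 after embedding at 96 h, while *Dll1* spreads most in the 72 h, 1.5 mM group, with 8.93 to 22.5 CPM.

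*Lfng*, the clock's Notch-modifying enzyme (chr5:140607320-140615545, mm10, plus strand), passed the test in 1.5 mM gels by a small margin. It had 120, 127 and 107 counts after embedding at 72 h and 102, 82 and 63 counts after embedding at 96 h, and the groups were apart. *Lfng* rose by 0.67 (SE 0.20, edgeR adjusted p = 0.0476), but the call was lost when any of 5 of the 6 libraries was left out, the exception being 96 h, 1.5 mM replicate 1. The lowest of those values was 0.51, without 96 h, 1.5 mM replicate 3 (adjusted p = 0.145), and without 72 h, 1.5 mM replicate 1 it was 0.64 (adjusted p = 0.0607). In 1.0 mM gels the groups overlapped, with 108, 146 and 132 counts against 162, 94 and 127. The difference there was 0.14 (SE 0.21, edgeR adjusted p = 0.753), and over both gels it was 0.39 (SE 0.16, edgeR adjusted p = 0.0751).

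*Rspo3* (chr10:29452416-29535867, mm10, minus strand), which strengthens Wnt signals by keeping their receptors at the cell surface, was measured in 1.5 mM gels at 474, 487 and 472 counts for the 72 h embedding and at 452, 354 and 400 counts for the 96 h embedding. 2 overlapping annotated genes, *Gm20276* on the same strand and *Gm48159* on the opposite strand, had 0 to 4 and 0 to 1 counts. The groups were apart and *Rspo3* rose by 0.40 (SE 0.10, edgeR adjusted p = 0.0265), which is 1.32-fold. The call was lost without 72 h, 1.5 mM replicate 2 (0.37, adjusted p = 0.0892), without 96 h, 1.5 mM replicate 2 (0.34, adjusted p = 0.105), without 96 h, 1.5 mM replicate 3 (0.40, adjusted p = 0.0823), and in the fit of all 12 libraries (0.40, adjusted p = 0.0931). In 1.0 mM gels the counts were 533, 539 and 333 against 529, 416 and 437, and these groups overlapped. The third library at 72 h was the lowest of the 12, and the difference was 0.15 (SE 0.18, edgeR adjusted p = 0.676). In all, 3 of 7 tested genes rose in 1.5 mM gels and none fell, where 10.4% of all genes tested rose and 8.98% fell. Without 72 h, 1.5 mM replicate 1 the changed genes were *Dll1*, *Dll3* and *Rspo3*, and *Dll3* was the sole changed gene without 72 h replicate 2, 96 h replicate 2 or 96 h replicate 3. The calls over all genes moved too, from 3033 of 15683 to 4102 of 16064 without 72 h, 1.5 mM replicate 1. Without 72 h replicate 2, 96 h replicate 2 and 96 h replicate 3 they were 1614 of 16029, 1181 of 16014 and 1224 of 16010.

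*Dll1* (chr17:15367354-15376872, mm10, minus strand), the ligand that switches Notch receptors on in neighbouring cells, had its 2 lowest values in the replicates numbered 1 of the earlier embedding. In 1.0 mM gels the counts were 238, 333 and 334 for the earlier embedding and 440, 429 and 487 for the later, without overlap. The difference of -0.46 (SE 0.14, edgeR adjusted p = 0.0628) missed the threshold. Of 11 alternatives 3 took it past, with adjusted p from 0.0234 to 0.229 over the 11. The opposite-strand gene *A930024N18Rik*, which overlaps the *Dll1* locus, was not analysed here. In 1.5 mM gels the counts of 201, 505 and 445 enclosed those of the later embedding, 361, 382 and 426. The difference there was 0.12 (SE 0.26, edgeR adjusted p = 0.79), and without the library of 201 counts, 72 h, 1.5 mM replicate 1, *Dll1* was higher by 0.41 (edgeR adjusted p = 0.0369).

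The presomitic factor *Tbx6* and the segment border factor *Mesp2* did not pass the test in any comparison. *Tbx6* (chr7:126781483-126785560, mm10, plus strand) had 35, 40 and 20 counts against 60, 37 and 32 in 1.0 mM gels, and 39, 43 and 52 against 52, 80 and 46 in 1.5 mM gels (72 h against 96 h). The groups overlapped in both gels, and over both the log2 difference was -0.30 with a 95% interval of -0.76 to 0.16. *Mesp2* (chr7:79810727-79813439, mm10, plus strand), which sets the anterior compartment of the next somite, had 10, 31 and 9 counts against 34, 18 and 27, and 12, 24 and 19 against 19, 22 and 17. Its difference over both gels was -0.24 with a 95% interval of -0.89 to 0.41. At 9 to 34 counts a library, smaller differences of *Mesp2* were not detectable at this depth.

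*Ripply2* (chr9:87015537-87019917, mm10, plus strand), which ends Mesp2 activity at the border, had 4, 5, 2, 3, 9 and 5 counts after embedding at 72 h and 4, 5, 1, 1, 5 and 6 after embedding at 96 h, and the embedding times overlapped. No difference was detectable at this depth. *Msgn1* (chr12:11208360-11208972, mm10, minus strand) had at most 1 count in 11 libraries and 3 counts in 72 h, 1.5 mM replicate 3. Levels of the tested genes varied more between replicates than those of most genes. Their within-group SD of log2 CPM ran from 0.231 (*Rspo3*) to 0.535 (*Mesp2*). Over all genes the median was 0.161 and the upper quartile 0.315. *Rspo3* and *Lfng* (0.275) lay below that quartile and the rest above it, and genes were not matched for count level.

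The second question was whether gel concentration altered these genes at a fixed embedding time, with log2 fold changes of 1.5 mM over 1.0 mM. None of the 7 tested genes changed after embedding at 72 h or at 96 h by the edgeR test, where 0% of all genes tested changed in either comparison. An unadjusted p below 0.05 was reached by 1074 genes at 72 h, with none of the 7 among them, and by 1578 genes at 96 h, with *Dll3* and *Lfng* among them. After embedding at 96 h, the difference of *Lfng* was -0.61 (95% interval -1.10 to -0.13, edgeR adjusted p = 0.411) and that of *Dll3* was -0.44 (-0.85 to -0.03, adjusted p = 0.472). After embedding at 72 h, *Dll3* differed by 0.01 (-0.40 to 0.41) and *Rspo3* by 0.08 (-0.31 to 0.47). *Tbx6* had the point estimates 0.54 (-0.11 to 1.20) at 72 h and 0.48 (-0.18 to 1.15) at 96 h. Over both embedding times none of the 7 changed, where 0.0305% of all genes tested did (5 of 16388). *Tbx6* had 0.51 there (SE 0.22, edgeR adjusted p = 0.346, unadjusted p = 0.0313). That share rested on 72 h, 1.5 mM replicate 1, the library that stood apart, as 80 of 16754 genes were called without it. None of the 7 was called in that fit. After embedding at 72 h, 0 of 15887 genes were called without this library. DESeq2 called 0 of the 7 in each comparison of gels, where it called 16 of all genes tested at 72 h (0.12%) and 97 at 96 h (0.715%). DESeq2 gave no adjusted p for *Hes7* at 72 h and for *Mesp2* at 72 h and 96 h. Without the filter on low counts *Dll3* was called at 96 h (adjusted p = 0.0251), together with 1.14% of all genes tested (333 of 29248).

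The third question was whether the difference between embedding times depended on the gel. The interaction was called for none of the 7 tested genes and for 0% of all genes tested by the edgeR test, and 708 genes had an unadjusted p below 0.05. DESeq2 called 2 genes of all tested, none of them among the 7. *Hes7* had the largest estimate, 1.06 (95% interval 0.06 to 2.07, unadjusted p = 0.0394, adjusted p = 0.953), and *Dll3* had 0.45 (-0.19 to 1.09). Hence the calls of *Hes7* in 1.0 mM gels alone and of *Dll3*, *Lfng* and *Rspo3* in 1.5 mM gels alone were not shown to differ between the gels.

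**Figure D3:**
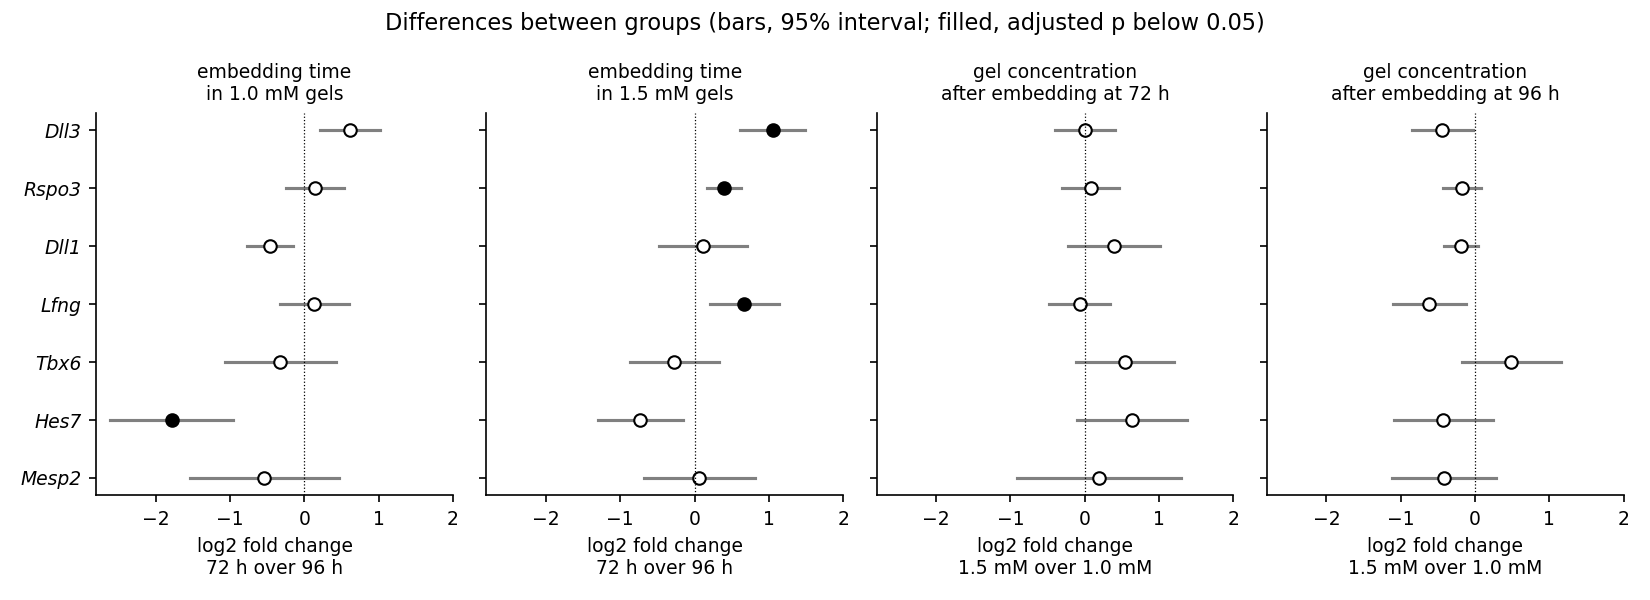
Log2 fold change of each tested gene in the 4 pairwise comparisons (72 h over 96 h in the left pair of panels, 1.5 mM over 1.0 mM in the right pair), with 95% intervals and filled points below an adjusted p of 0.05. *Hes7* is filled at -1.78 in 1.0 mM gels, *Dll3*, *Lfng* and *Rspo3* are filled in 1.5 mM gels, and no point is filled between gels.

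Other genes of the same pathways gave a mixed picture for embedding time. Of 24 further Notch pathway genes, 2 rose and 2 fell in 1.0 mM gels and 3 rose and 1 fell in 1.5 mM gels, with median log2 differences of 0.01 and 0.10 against -0.01 over all genes tested in each. The ligand *Jag1* was higher in both gels (0.50, SE 0.08, and 0.48, SE 0.09, edgeR adjusted p = 0.00352 and 0.00886). The Notch target *Hey2* was higher in 1.0 mM gels by 1.47 (edgeR adjusted p = 0.00106) and its relative *Heyl* lower by 1.37 on the log2 scale (-1.37, edgeR adjusted p = 0.0171). In 1.5 mM gels *Hey2* had 0.80 (adjusted p = 0.0828) and *Heyl* -0.61 (adjusted p = 0.2), both short of the threshold, and the receptor *Notch4* fell by 0.42 over both gels (edgeR adjusted p = 0.0174).

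Of 18 Wnt and FGF feedback genes of the clock, 5 rose and 1 fell in 1.0 mM gels, and 3 rose and 1 fell in 1.5 mM gels, with medians of 0.20 and 0.09. The FGF pathway inhibitors *Dusp4* and *Spry4* rose in both gels, *Dusp4* by 1.02 and 1.57 (edgeR adjusted p = 0.000161 and 8.91e-05) and *Spry4* by 1.06 and 1.21 (edgeR adjusted p = 0.00169 and 0.00722). The secreted Wnt inhibitor *Dkk1* and the hyaluronan synthase *Has2* rose in 1.0 mM gels by 1.21 and 0.77 (edgeR adjusted p = 0.000623 and 0.00386). In 1.5 mM gels they had 0.33 and 0.42 (adjusted p = 0.267 and 0.132).

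Of 14 tail bud and posterior presomitic genes, 12 were tested in 1.0 mM gels, of which 2 rose and 3 fell, and 11 in 1.5 mM gels, of which 3 rose and 1 fell. *T*, the mesoderm and notochord factor brachyury, rose by 1.18 and 1.42 (edgeR adjusted p = 0.000604 and 0.00026). The growth factor *Fgf4* fell by 2.42 and 2.53 (edgeR adjusted p = 0.00129 and 0.00145), in the direction of *Hes7*. *Nkx1-2*, a marker of the progenitors of the caudal axis, and the caudal factor *Cdx1* fell by 2.29 and 2.01 in 1.0 mM gels (edgeR adjusted p = 0.00195 and 0.0105). Both rested on low counts there, 6 to 13 against 48 to 63 for *Nkx1-2* and 3 to 7 against 19 to 27 for *Cdx1* (72 h against 96 h). *Nkx1-2* had -0.90 in 1.5 mM gels (adjusted p = 0.198), where *Cdx1* was not tested. The summed level of the list was 406 to 519 CPM against 254 to 322 CPM in 1.0 mM gels and 379 to 442 against 264 to 275 CPM in 1.5 mM gels (72 h against 96 h), and *T* alone gave 225 to 290 and 180 to 230 CPM of the sums at 72 h.

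Of the 4 related lists, that of segment border and somite genes had the medians farthest from 0. Of its 17 genes 13 fell in 1.0 mM gels and 8 in 1.5 mM gels, and none rose, with median log2 differences of -1.41 and -0.55. *Meox2*, a homeobox factor of the somite, fell by 3.79 and 3.48 (edgeR adjusted p = 6.73e-05 and 0.000546), and *Meox1* by 2.03 and 1.42 (edgeR adjusted p = 0.000301 and 0.00531). *Pax1*, a factor of the sclerotome that forms vertebrae, fell by 1.41 and 1.54 (edgeR adjusted p = 0.0106 and 0.0497), and the growth factor *Fgf18* fell by 3.33 in 1.0 mM gels (edgeR adjusted p = 0.00681) and had -1.49 in 1.5 mM gels (adjusted p = 0.0746). In 1.5 mM gels the count of 8 was 5 without 96 h replicate 2 and 4 without 96 h replicate 3. Over all genes, 3033 of 15683 were called with every library, and 1181 of 16014 and 1224 of 16010 in these fits. Of the 7 genes tested, only *Hes7* had a called change in the direction of this list. *Dll1* passed the threshold in that direction in 3 of 11 alternatives in 1.0 mM gels.

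**Figure D4:**
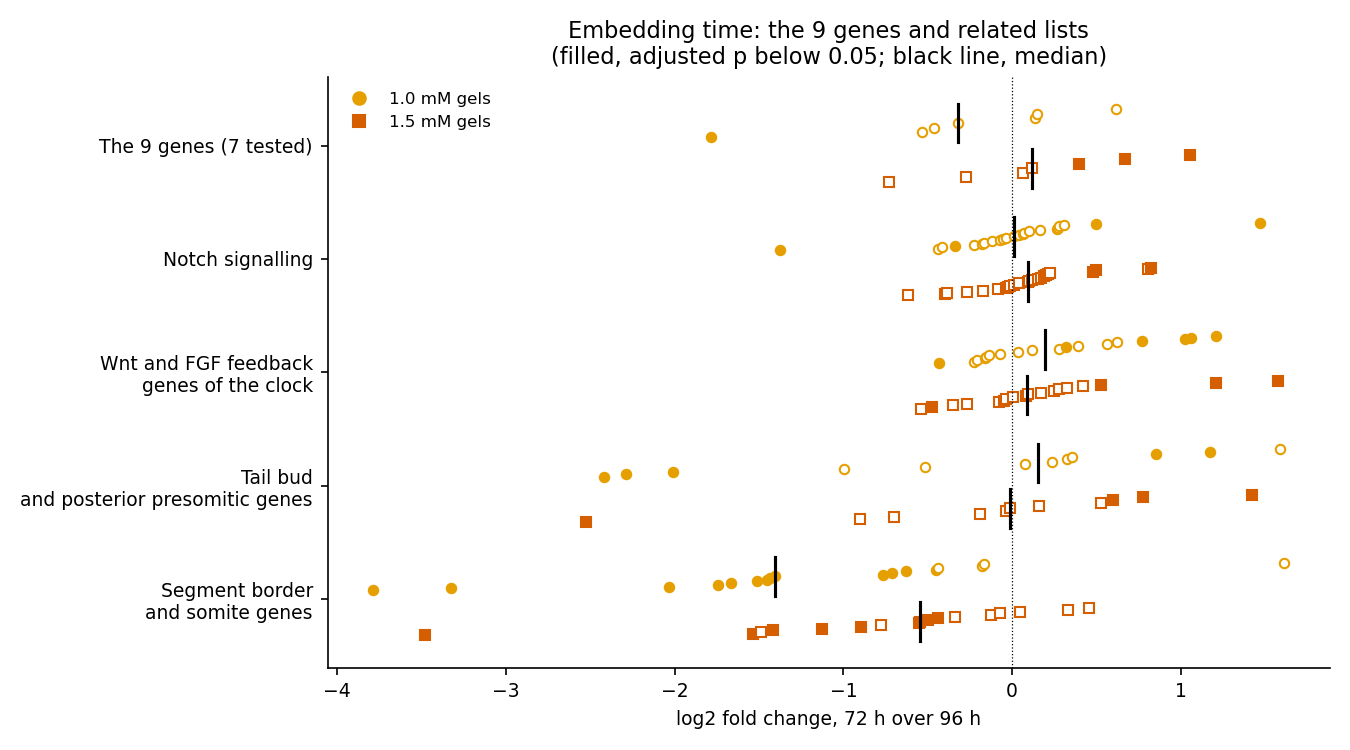
Log2 fold change of 72 h over 96 h for each tested gene of the 9 and of the 4 related lists (circles, 1.0 mM gels, and squares, 1.5 mM gels), filled below an adjusted p of 0.05, with a black line at the median. The segment border and somite genes lie mostly below 0, with medians of -1.41 and -0.55, while the other lists spread to both sides.

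Markers of other cells moved with the same groups. Beside them, 5.97% of all genes tested rose and 3.27% fell in 1.0 mM gels, and 10.4% rose and 8.98% fell in 1.5 mM gels. In 1.0 mM gels all 8 of 8 cardiac and anterior mesoderm markers rose with the earlier embedding, as did 5 of 8 in 1.5 mM gels, with summed levels of 495 to 871 against 72.6 to 202 CPM and 414 to 717 against 203 to 356 CPM. Of 8 pluripotency markers 7 were tested, and 5 fell in each gel, with sums of 34.3 to 43.3 against 107 to 144 CPM and 32 to 39.1 against 83.6 to 98.9 CPM, none of the 8 at 0 throughout a group. Of the neural tube markers 2 rose and 2 fell of 6 tested in 1.0 mM gels (114 to 133 against 89.5 to 109 CPM) and 1 rose and 1 fell of 5 in 1.5 mM gels (127 to 147 against 98.2 to 120 CPM). Of 8 endoderm and epithelium markers 2 rose in 1.0 mM gels (435 to 487 against 309 to 359 CPM) and 2 rose and 1 fell in 1.5 mM gels (312 to 396 against 247 to 335 CPM). Of 8 endothelial markers 2 rose and 2 fell in 1.0 mM gels (280 to 369 against 278 to 310 CPM) and 1 rose and 2 fell in 1.5 mM gels (274 to 414 against 341 to 384 CPM). The share of counts from mitochondrial genes was 1.68 to 2.6% in the 6 libraries embedded at 72 h and 2.37 to 3.02% in the 6 embedded at 96 h. The part of these markers and of this share in the changes of *Hes7*, *Dll3*, *Lfng* and *Rspo3* was not tested.

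The genes whose log2 CPM followed 4 of the 9 most closely over the 12 libraries were ranked by Pearson's r as a description, among 11344 genes that averaged 100 counts or more. *Hes7* was most like *Deptor* (r = 0.924), *Ercc6* (0.919) and *Pdzd4* (0.912), and within embedding times its r with *Deptor* was 0.887 over the libraries at 72 h and 0.578 over those at 96 h. *Tbx6* was most like *Stx4a* (r = 0.92), *Gpt* (0.884) and *Uhrf1bp1l* (0.864), and its r with *Stx4a* was 0.958 and 0.947 within embedding times. *Mesp2* was most like *Ogdhl* (r = 0.849), *Tor1b* (0.849) and *Adam23* (0.848), at 9 to 34 counts of *Mesp2*. *Rspo3* was most like *Ulk3* (r = 0.898), *Pm20d1* (0.897) and *Ezh1* (0.897). Of the 9 genes, only *Dll1*, *Dll3*, *Lfng* and *Rspo3* averaged enough counts to be candidates. Libraries share their group and depth, and no test was made.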

How the data were processed

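Poly-A RNA of 12 libraries was sequenced with stranded paired-end libraries. The authors trimmed the reads (cutadapt 4.4 per the submitters' processing notes), aligned them to mm10 with STAR 2.7.10b and deposited raw read counts per gene without normalization. The authors also deposited FPKM values made with Cufflinks 2.2.1.3. Their table of pairwise comparisons, with log2 fold changes and adjusted p-values, was not used.

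Here 36 mitochondrial genes were left out, and counts were fitted with edgeR 4.0.16 in R 4.3.3 (TMM, filterByExpr with minimum count 10 and total 15, glmQLFTest), with Benjamini-Hochberg adjustment over all genes tested. CPM use TMM-scaled totals, and log2 CPM a prior count of 2. Pairwise fits used 6 libraries and pooled fits 12. Intervals are 95% intervals of the fit. The script was tested on simulated data. Alternatives were RLE size factors, DESeq2 1.42.0, no low-count filter, a replicate block, all 12 libraries in 1 fit and each library left out. Related genes named are up to 4 per list with the largest changes over both gels among those called, and the 3 most alike for *Tbx6*, *Hes7*, *Mesp2* and *Rspo3*. The 9 genes and the lists were chosen with earlier results of these data known. The replicates are described as independent, but the labels name no culture or date, so p-values measure the spread between these libraries. Limits of counting cover counting error only.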

Additional observations from a re-analysis of the deposited data

How the results depend on the processing

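Over 49 results of single genes (7 genes in 7 comparisons), 586 of 644 alternative values kept their direction and side of the threshold (3 of them uncalled results to which DESeq2 gave no adjusted p), 17 passed it, 10 fell short of it and 31 changed sign, each of the 31 with a library left out and none of them for a called result. Of the 9 genes, 3 were called in 1.0 mM gels with DESeq2, and 3 without the low-count filter, against 1. The share of all genes called was 9.38% (1669 of 17792) and 7.85% (2283 of 29070) against 9.24% (1457 of 15763). Leaving out the filter raised the number of genes tested, so shares with and without it have different totals. Without the filter 1 was called between gels after embedding at 96 h against 0, and 4 over both gels against 2. Over both gels 5223 of 31406 genes tested (16.6%) were called without the filter, against 5092 of 16388 (31.1%) with it. Without the filter the changed genes were 7 of the Notch list and 10 of the Wnt and FGF list in 1.0 mM gels. In 1.5 mM gels they were 8 of the Wnt and FGF list, where 3605 of 28917 genes (12.5%) were called against 3033 of 15683 (19.3%). The cause was not tested. With 1 library left out, the genes called numbered 1 to 2 in 1.0 mM gels, 1 to 3 in 1.5 mM gels and 2 to 4 over both gels, those of the Notch list 2 to 4 and 2 to 7, and those of the somite list 4 to 8 in 1.5 mM gels. The count of 4 over both gels came without 96 h, 1.0 mM replicate 1, where 4386 of 16692 genes tested were called. Over these fits the calls among all genes ran from 731 of 16099 to 1680 of 16145 in 1.0 mM gels. They ran from 1181 of 16014 to 4102 of 16064 in 1.5 mM gels, and from 3944 of 16714 to 5671 of 16723 over both gels.

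Signs changed with a library left out for embedding time in 1.0 mM gels for *Lfng* (-0.02 to 0.34) and in 1.5 mM gels for *Tbx6* (-0.43 to 0.03), *Dll1* (-0.17 to 0.41) and *Mesp2* (-0.20 to 0.28). Between gels at 72 h they changed for *Dll3* (-0.18 to 0.19), *Lfng* (-0.17 to 0.04), *Mesp2* (-0.10 to 0.97) and *Rspo3* (-0.11 to 0.20), and at 96 h for *Hes7* (-0.61 to 0). Between gels over both times they changed for *Dll1* (-0.06 to 0.20), *Hes7* (-0.10 to 0.30), *Mesp2* (-0.29 to 0.10) and *Rspo3* (-0.16 to 0.01), and in the interaction for *Tbx6* (-0.25 to 0.35).

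Same-numbered replicates of different groups had correlated deviations of 0.0365 to 0.313 over 18 pairs, and in none of the 4 pairwise comparisons of the design was every pair above 0.1, so the numbers were not taken to pair the libraries. In 33 of 36 cases a library correlated best with its own number, a hint from the data, not the design. With the replicate block 3 genes were called in 1.0 mM gels (*Dll1*, *Dll3* and *Hes7*) against 1, where 13.5% of all genes were called against 9.24%. There 7 genes of the Notch list were called with the block. In 1.5 mM gels 7 of the Wnt and FGF list were called, where 24.8% of all genes were called against 19.3%. Over both gels *Rspo3* was also called, where 36.3% of all genes were called against 31.1%. Between gels, the block took the calls over all genes from 0 to 43 of 15563 at 72 h. At 96 h they went from 0 to 289 of 15861, and over both embedding times from 5 to 81 of 16388. None of the 7 tested genes was called between gels with the block. Genes with counts as low as those of *Mesp2* and *Ripply2* are limited by depth.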

Other observations

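Ratios of FPKM within a library, chosen after the values were seen and given without a test, set the genes side by side without a total. The ratio of *Dll3* to *Dll1* was 2.15 to 3.63 (median 3.02) in the 6 libraries embedded at 72 h and 0.861 to 1.95 (median 1.39) in the 6 embedded at 96 h, so that the embedding times did not overlap. The ratio of *Hes7* to *Lfng*, both parts of the clock's negative feedback, was 0.0974 to 0.285 (median 0.171) against 0.397 to 0.667 (median 0.506), also without overlap. *Hes7* alone already separated the embedding times, so this ratio adds no separate result. The share of other gene pairs with ratios apart was not counted. The ratio of *Hes7* to *Tbx6* was 0.328 to 0.885 (median 0.581) against 0.599 to 1.55 (median 1.28), and these ranges overlapped.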
